A study of Mus musculus with 8 samples.

Results

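The transcriptional response to loss of Arid1a was set beside the response to JQ1 in mouse osteoclast precursors, to find the genes that moved together and the genes that moved apart outside the interferon genes. The count tables of both experiments were joined by gene ID, which matched all 21958 genes, and each gene received a response to Arid1a loss (Arid1a cKO over Arid1a control), a response to JQ1 (JQ1 over JQ1 control) and the difference of the 2 responses. Of the joined genes, 10807 had enough reads for all 3 tests and were not among the 180 tested genes of the interferon list, and these 10807 are the genes described here. All 8 libraries came from bone marrow-derived monocytes cultured with 50 ng/ml M-CSF and 100 ng/ml RANKL. The groups of 2 libraries each were LysM-Cre;Arid1afl/fl cells (Arid1a cKO), their controls, whose genotype the labels give only as CONTROL, wild-type cells with JQ1, and wild-type cells without it (JQ1 control). LysM-Cre acts in cells of the myeloid lineage and removes the part of Arid1a between its loxP sites. The 2 experiments share no library. The study's supplement describes the Arid1a samples of its bulk RNA-seq as biologically independent. For the JQ1 libraries neither the labels nor the study's text used here says whether they came from separate animals or cultures, so their p-values measure a spread between libraries that may be technical. The study's methods describe such cultures as made from the femurs of young mice, and the labels give no age, sex or number of mice.

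ARID1A is the subunit that sets the canonical BAF complex apart from other SWI/SNF complexes, which slide or evict nucleosomes and so open enhancers. JQ1 occupies the acetyl-lysine pocket of the BET proteins, which otherwise recruit the elongation machinery to acetylated enhancers and promoters. Both act at enhancers, and in the osteoclast lineage enhancers serve the programme that RANKL starts through AP-1, NF-kB and NFATc1, ending in cell fusion, acid secretion and matrix digestion. Monocytes under RANKL can otherwise stay macrophage-like, with phagocytic receptors, lysosomes, complement components and antigen presentation.

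Libraries held 15108239 to 17302136 counted reads, and levels are given as CPM, the counts scaled by library size with TMM factors. Arid1a itself had 127 and 122 CPM in cKO cultures against 160 and 231 CPM in Arid1a controls, a log2 fold change of -0.65 ± 0.15 (SE, edgeR adjusted p = 0.00607), and its change after JQ1 was 0.06 ± 0.06, which did not pass. The cKO libraries were lower than both of their controls without overlap, and without Arid1a control replicate 2, the higher control, the change was -0.37. Gene-level reads also cover exons outside the deleted part, so they check the deletion only in part. The JQ1 table names its columns by the codes J0 and J4, read here as without and with JQ1. Hexim1, an inhibitor of P-TEFb known to go up when BET proteins are blocked, had 105 and 110 CPM in JQ1 cultures against 54.3 and 53.9 CPM in JQ1 controls and 65.6 and 73.8 CPM in cKO cultures against 59.5 and 56.3 CPM in Arid1a controls. The Arid1a control pair differed most between replicates, with a chi-square per degree of freedom of 16.9 over genes, against 2.67 for the cKO pair, 3.12 for the JQ1 pair and 3.96 for the JQ1 control pair. The summed level of 41 monocyte and macrophage markers was 19550 to 19590 CPM in cKO cultures, 20460 to 23060 CPM in Arid1a controls, 29840 to 30420 CPM in JQ1 cultures and 23720 to 24810 CPM in JQ1 controls, so markers of the labelled cell type were abundant in every library. T and NK cell markers summed to 175 to 186 CPM in cKO cultures against 136 to 137 CPM in Arid1a controls, and to 72.7 to 74.9 CPM in JQ1 cultures against 185 to 188 CPM in JQ1 controls, with the T cell gene Cd3e at 0 in every group but the JQ1 control. B cell and erythroid markers each summed to no more than 10.8 CPM in any library. In bulk RNA, fewer cells of a type and less RNA per cell cannot be told apart.

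The 2 responses had little relation across genes. Outside the interferon list, 1802 genes were higher and 1785 lower after Arid1a loss (16.7% and 16.5% of the 10807), and 2159 were higher and 2063 lower after JQ1 (20% and 19.1%), at a Benjamini-Hochberg adjusted p under 0.05 in edgeR's quasi-likelihood test. The fold changes had a Pearson r of 0.068 and a Spearman rho of 0.163 over the 10807 genes, as a description over genes that are not independent, and 57.8% of genes had the same sign in both. With the 180 interferon genes included r was -0.06. The difference itself passed the same test for 3051 genes, 28.2% of those tested, positive (higher after Arid1a loss relative to JQ1) for 1591 or 14.7% and negative for 1460 or 13.5%. Of the 1843 genes called in both responses, 1248 moved together and 595 moved apart. All 595 passed the test of the difference, which adds little, since 2 called changes of opposite sign add up in it.

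These calls define 4 main classes. Genes higher in both numbered 579 (5.36% of the 10807) with median log2 fold changes of 0.56 after Arid1a loss and 0.34 after JQ1. Genes lower in both numbered 669 (6.19%) with medians of -0.65 and -0.38. Genes higher after Arid1a loss and lower after JQ1 numbered 425 (3.93%) with medians of 0.85 and -0.68, and genes lower after Arid1a loss and higher after JQ1 numbered 170 (1.57%) with medians of -0.53 and 0.31. The median over all 10807 genes was -0.01 after Arid1a loss and 0.01 after JQ1. Since the calls chose the members, the medians describe the classes and test nothing. The groups of 2 libraries lay apart without overlap in each experiment for 5249 of the 10807 genes (48.6%). They did so for 578 of the 579 genes higher in both and 666 of the 669 lower in both. For the classes that moved apart these were 422 of 425 and 169 of 170, so a lack of overlap in a named gene adds little to its call. Moving together did not mean moving by the same amount, since the difference was also called for 175 of the 579 genes higher in both (166 or 1.54% of all genes tested larger after Arid1a loss, 9 or 0.0833% larger after JQ1) and for 214 of the 669 lower in both (186 or 1.72% larger after Arid1a loss, 28 or 0.259% larger after JQ1). It was not called for 404 (3.74%) and 455 (4.21%). Changes of at least 2-fold in both responses were found for 76 genes lower in both and 102 genes higher after Arid1a loss and lower after JQ1, but only for 4 genes in each of the other main classes.

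The sizes of the classes depended on single libraries. Without Arid1a control replicate 2 the classes held 923, 868, 523 and 335 genes in the order given, without Arid1a control replicate 1 they held 718, 740, 499 and 288, without cKO replicate 1 they held 310, 433, 320 and 85, and without cKO replicate 2 they held 323, 417, 314 and 80. Under upper-quartile scaling 472 genes were higher and 831 lower in both. The controls of the 2 experiments also differed in level, with a median log2 ratio of Arid1a control over JQ1 control of -0.33 for genes higher in both and 0.35 for genes lower in both, against -0.02 over all genes tested, so the difference of the responses cannot be told apart from a difference between the experiments.

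**Figure D1:**
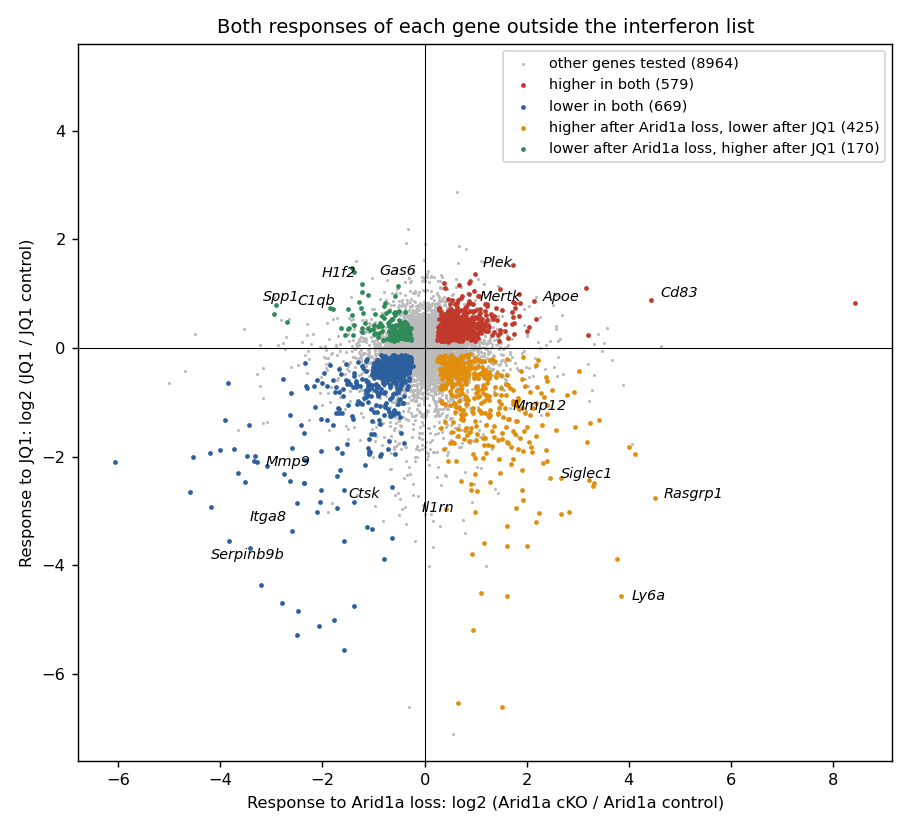
Log2 fold change after Arid1a loss (x axis) against log2 fold change after JQ1 (y axis) for the 10807 genes tested outside the interferon list, 1 point per gene, coloured by class. Changes of at least 2-fold in both responses were found for 102 of the 425 genes at lower right, 76 of the 669 at lower left and 4 of the 579 at upper right. The point farthest right is Slc15a2, which had 0 CPM in both Arid1a controls, so its fitted fold change is no measure of size (named here after its values were seen).

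Genes lower in both responses included Mmp9, Ctsk, Dcstamp and Tm4sf19 of the osteoclast programme. The promoters of Mmp9, the gelatinase that osteoclasts use on bone matrix, and of Ruvbl2, an ATPase of chromatin and snoRNP assembly complexes, are shown because each carries 1 of the motifs that this class held more often than all genes tested, the AP-1 motif (TGANTCA) for Mmp9 and the ETS motif (GGAAGTG) for Ruvbl2, printed in capitals. Each line gives the 250 bases before the start site of the GENCODE M39 canonical transcript in GRCm39, 5′ to 3′ on the gene's strand.
Mmp9, chr2:164789889-164790138, plus strand: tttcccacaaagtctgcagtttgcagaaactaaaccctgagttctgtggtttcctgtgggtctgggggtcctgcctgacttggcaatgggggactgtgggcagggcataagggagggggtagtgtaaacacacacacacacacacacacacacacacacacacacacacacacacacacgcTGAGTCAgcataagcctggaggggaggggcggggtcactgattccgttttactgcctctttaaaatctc
Ruvbl2, chr7:45084065-45084314, minus strand: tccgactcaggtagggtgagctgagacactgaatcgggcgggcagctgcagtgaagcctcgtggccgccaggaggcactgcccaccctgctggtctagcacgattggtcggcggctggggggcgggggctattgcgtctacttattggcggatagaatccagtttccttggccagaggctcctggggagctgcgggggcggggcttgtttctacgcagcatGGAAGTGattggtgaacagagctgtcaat
The AP-1 match starts 69 bases before the Mmp9 start site and the ETS match 29 bases before the Ruvbl2 start site.

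Mmp9 (ENSMUSG00000017737, chr2:164782700-164797770 in GRCm39, as are all positions given) had 19.2 and 18.7 CPM in cKO cultures against 181 and 189 CPM in Arid1a controls. Levels of Mmp9 were 6.62 and 8 CPM in JQ1 cultures against 32.1 and 30.9 CPM in JQ1 controls. The groups did not overlap in either experiment, and the Arid1a controls lay above both JQ1 controls. Its log2 fold changes were -3.29 ± 0.11 and -2.10 ± 0.14 (SE), and the fall was larger after Arid1a loss, with a difference of -1.19 ± 0.15 (edgeR adjusted p = 2.48e-05). Dcstamp, a membrane protein needed for precursor fusion, had 2.37 and 1.42 CPM in cKO cultures against 7.55 and 7.98 CPM in Arid1a controls, and 0.729 and 0.875 CPM in JQ1 cultures against 4.83 and 5.11 CPM in JQ1 controls, and its difference of 0.59 ± 0.44 did not pass (edgeR adjusted p = 0.347). The cKO and JQ1 cultures were below their controls without overlap, at levels under 10 CPM. Ctsk, the collagen-degrading protease of osteoclasts, had 36.2 and 30.8 CPM in cKO cultures against 54.4 and 50.6 CPM in Arid1a controls. Levels of Ctsk were 12.1 and 14.7 CPM in JQ1 cultures against 72 and 87 CPM in JQ1 controls. It was low mainly in the JQ1 libraries, and its difference of 1.92 ± 0.18 passed (edgeR adjusted p = 5.67e-07). Its change after Arid1a loss of -0.65 (edgeR adjusted p = 0.00218) did not pass without cKO replicate 2, at -0.53 with an edgeR adjusted p of 0.0548. Tm4sf19, a tetraspanin-like protein of fusing osteoclasts, fell by 3.47 after Arid1a loss and by 1.99 after JQ1 on the log2 scale. The other fusion genes went several ways, since of 11 tested 3 were lower in both (Cd44, Dcstamp and Tm4sf19; 27.3%, against 6.19% of all genes tested), 3 were higher in both (Cd9, Sh3pxd2a and Sirpa; 27.3%, against 5.36%) and 2 rose after Arid1a loss only by the test of the difference (Adam8 and Cd47), with list medians of 0.26 and 0.02.

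The 8 genes with the largest smaller change in this class, among genes of at least 10 CPM in a group, were Mmp9, Itga8, Serpinb9b, Acsbg1, Scin, Plxna4, Slc6a12 and Eef1a2. Itga8, an integrin chain of matrix receptors, had 1.93 and 2.13 CPM in cKO cultures against 9.75 and 13.3 CPM in Arid1a controls. Levels of Itga8 were 0.927 and 1.17 CPM in JQ1 cultures against 8.29 and 7.07 CPM in JQ1 controls. The cKO and JQ1 cultures were low without overlap, and the difference of 0.36 ± 0.40 did not pass (edgeR adjusted p = 0.54). Serpinb9b, a serine protease inhibitor of a family of near-identical copies between which reads may be split, had 1.37 and 0.775 CPM in cKO cultures against 16.4 and 14.6 CPM in Arid1a controls, and 1.13 and 0.817 CPM in JQ1 cultures against 10.5 and 12.2 CPM in JQ1 controls, with a difference of -0.29 ± 0.43 (edgeR adjusted p = 0.662). Scin, an actin-severing protein, had 2 reads over both JQ1 libraries against 64 over both JQ1 controls, a ratio of 0.031 with an exact 95% counting interval of 0.00368 to 0.117, and 2.43 and 2.33 CPM in cKO cultures against 13.7 and 12.8 CPM in Arid1a controls. Acsbg1, an acyl-CoA synthetase, had 1 read against 48, a ratio of 0.0207 with an interval of 0.000513 to 0.121. The JQ1 value of Eef1a2, an elongation factor isoform, rested on 1 library, since its change of -2.10 became -1.19 without JQ1 replicate 1 and no longer passed (edgeR adjusted p = 0.209), and its difference changed sign, to 1.36, without JQ1 replicate 2.

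Myc and its relative Mycl fell in both. Myc (ENSMUSG00000022346, chr15:61857240-61862223), the transcription factor that drives ribosome production and is a classic target of JQ1, had 203 and 210 CPM in cKO cultures against 377 and 364 CPM in Arid1a controls. Levels of Myc were 36.5 and 35.5 CPM in JQ1 cultures against 58.9 and 62.3 CPM in JQ1 controls. The cKO and JQ1 pairs lay below their controls, with log2 fold changes of -0.84 ± 0.08 and -0.75 ± 0.09, with a difference of -0.09 ± 0.10 that did not pass (edgeR adjusted p = 0.542). Mycl had 3 reads over the JQ1 libraries against 87 over their controls, a ratio of 0.0342 with an exact 95% counting interval of 0.00693 to 0.103, and fell by 1.38 on the log2 scale after Arid1a loss. Mdm2, the ubiquitin ligase of p53, had 496 and 495 CPM in cKO cultures against 721 and 761 CPM in Arid1a controls, and 230 and 251 CPM in JQ1 cultures against 356 and 372 CPM in JQ1 controls, changes of -0.58 ± 0.08 and -0.60 ± 0.05 with a difference of 0.02 ± 0.09 (edgeR adjusted p = 0.914). Of the 16 tested genes of the MYC network list, 5 were lower in both (31.2%, against 6.19% of all genes tested) and 1 was higher in both, with list medians of -0.06 and -0.08. Of 46 DNA replication genes 5 were lower in both (10.9%), and of 40 genes of G2 and mitosis 1 was (2.5%), with medians of 0.00 and -0.01.

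Ribosome genes were frequent in the class. Of 81 tested cytosolic ribosomal protein genes, 75 fell after Arid1a loss (against 16.5% of all genes tested) and 56 after JQ1 (against 19.1%). Lower in both were 54 (66.7%, against 6.19% of all genes tested), with medians of -0.71 and -0.20. The difference was negative for 59 of the 81 (72.8%, against 13.5% of all genes tested). By that test 17, such as Rpl12 (-0.91 and 0.08), fell only after Arid1a loss (against 5.17%). These counts moved with the fit. Without JQ1 control replicate 2, 35 were lower in both, and with all 8 libraries in 1 fit 25 were. The negative difference passed for 32 and 25 without cKO replicate 1 or 2, for 33 and 31 without JQ1 replicate 1 or 2, and for 27 without JQ1 control replicate 1. Many ribosomal protein genes have near-identical copies in the genome, so the counts of single members are uncertain. Of 69 tested ribosome biogenesis genes, which make and assemble ribosomal RNA, 56 fell after Arid1a loss, 43 fell after JQ1 and 38 were lower in both (55.1%), a count of 25 and 24 without cKO replicate 1 or 2. Ncl, the nucleolar chaperone nucleolin, had 894 and 922 CPM in cKO cultures against 1766 and 1666 CPM in Arid1a controls. Levels of Ncl were 650 and 620 CPM in JQ1 cultures against 753 and 761 CPM in JQ1 controls. On the log2 scale it fell by 0.92 after Arid1a loss and by 0.26 after JQ1, and the difference of -0.66 ± 0.09 passed (edgeR adjusted p = 2.96e-05). Npm1, the nucleolar histone chaperone nucleophosmin, changed by -0.99 and -0.31. Ruvbl2, whose promoter is printed above, had 46.4 and 43.1 CPM in cKO cultures against 75 and 65.4 CPM in Arid1a controls, and 41.5 and 38.6 CPM in JQ1 cultures against 48.3 and 53.3 CPM in JQ1 controls, and its difference of -0.31 ± 0.14 did not pass (edgeR adjusted p = 0.12). Of 46 translation factor genes, 16 were lower in both (34.8%), and 6 to 8 in the 5 fits without either cKO library, either JQ1 library or JQ1 control replicate 2. Of 76 mitochondrial ribosomal protein genes, 12 were lower in both (15.8%). Ribosomal protein genes together took 1.57% and 1.55% of the reads of cKO libraries against 2.85% and 2.32% of their controls, and 2.31% and 2.28% of JQ1 libraries against 2.58% and 2.77% of theirs.

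Among secreted factors lower in both were Vegfa, the vascular growth factor (-0.57 ± 0.14 and -1.96 ± 0.17), which fell further after JQ1 with a difference of 1.38, and Ccl7, a monocyte chemokine (-2.35 ± 0.13 and -1.56 ± 0.07), which fell further after Arid1a loss with a difference of -0.80. Without cKO replicate 1 the Arid1a value of Vegfa was -0.52 and did not pass (edgeR adjusted p = 0.111). Of the 12 tested CC and CXC chemokines, 4 were lower in both (Ccl2, Ccl6, Ccl7 and Ccl9; 33.3%, against 6.19% of all genes tested), 0 were higher in both, 2 were higher after Arid1a loss and lower after JQ1 (Cxcl14 and Cxcl16; 16.7%, against 3.93%) and 2 rose after Arid1a loss only by the test of the difference (Ccl5 and Cxcl2).

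**Figure D2:**
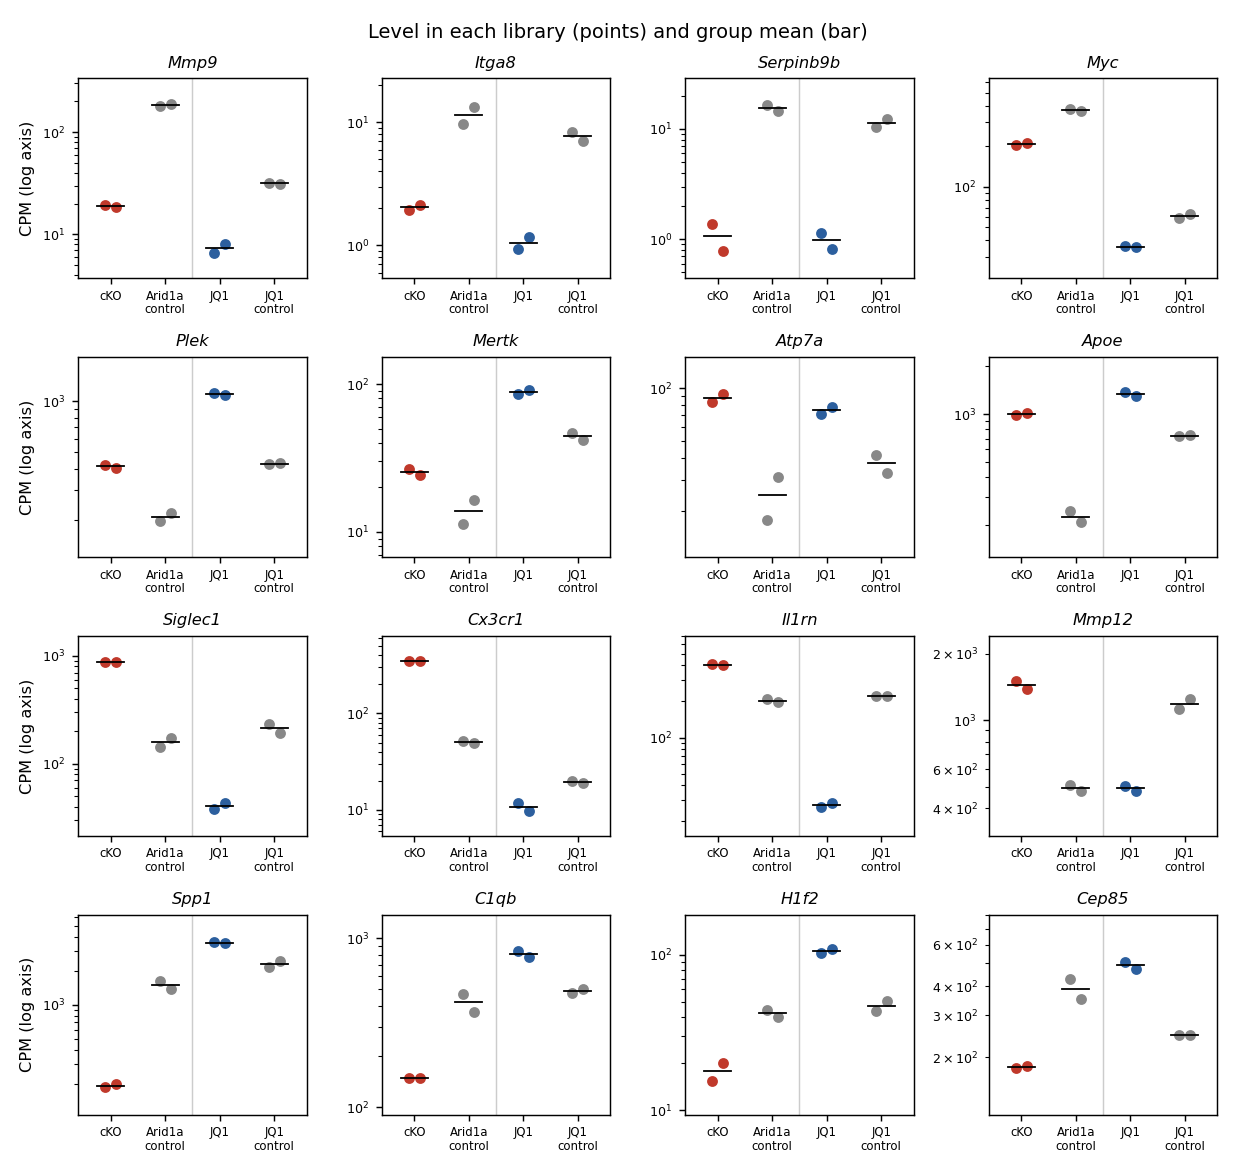
Level in CPM (log axis) of 16 named genes in each library, with points for libraries and a bar for the mean of each group of 2. The top row holds genes lower in both experiments, the next row genes higher in both, the next genes higher after Arid1a loss and lower after JQ1, and the bottom row genes lower after Arid1a loss and higher after JQ1; the Arid1a controls hold more Mmp9 (181 and 189 CPM) than the JQ1 controls (32.1 and 30.9 CPM).

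Genes higher in both responses included Atp7a, Plek, Mertk and Apoe. The promoter of Atp7a, a copper pump of the secretory pathway, is printed because it holds the palindrome TCACGTGA of the CLEAR motif, known for lysosomal genes under TFEB and TFE3, here in capitals and starting 140 bases before the start site.
Atp7a, chrX:105070632-105070881, plus strand: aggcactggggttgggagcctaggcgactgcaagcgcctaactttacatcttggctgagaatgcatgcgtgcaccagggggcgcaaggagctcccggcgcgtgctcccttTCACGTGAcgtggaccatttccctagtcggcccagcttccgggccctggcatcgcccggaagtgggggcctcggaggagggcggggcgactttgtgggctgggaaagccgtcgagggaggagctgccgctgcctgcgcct

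Atp7a had 83 and 92.4 CPM in cKO cultures against 17.7 and 31.1 CPM in Arid1a controls. Levels of Atp7a were 71.1 and 78.6 CPM in JQ1 cultures against 41.6 and 33 CPM in JQ1 controls. The cKO and JQ1 pairs lay above their controls, and the Arid1a controls differed from each other. Its difference of 0.84 ± 0.26 (edgeR adjusted p = 0.0256) was 0.49 without Arid1a control replicate 1 and 1.30 without replicate 2, and it did not pass in 4 of the 8 fits that left out a library. Plek (ENSMUSG00000020120, chr11:16921206-17002381), the protein kinase C substrate pleckstrin of blood cells, had 419 and 405 CPM in cKO cultures against 197 and 219 CPM in Arid1a controls. Levels of Plek were 1105 and 1091 CPM in JQ1 cultures against 426 and 431 CPM in JQ1 controls. Here the larger rise was that after JQ1, 1.36 ± 0.05 against 0.99 ± 0.09 after Arid1a loss, with a difference of -0.37 ± 0.09 (edgeR adjusted p = 0.00797) that did not pass without cKO replicate 2 (-0.34, edgeR adjusted p = 0.0644). Mertk, a receptor for the engulfment of dying cells, had 26.8 and 24.3 CPM in cKO cultures against 11.3 and 16.5 CPM in Arid1a controls, and 85.9 and 91.2 CPM in JQ1 cultures against 46.7 and 42 CPM in JQ1 controls, with a difference of -0.12 ± 0.19 (edgeR adjusted p = 0.678). It was higher in cKO and in JQ1 cultures without overlap, and the JQ1 experiment held more of it in both groups. Rnf157, a ubiquitin ligase, Klhl24, a substrate adaptor of such ligases, and Syne2, a nuclear envelope anchor, changed by 0.97 and 1.06, 1.04 and 0.96, and 1.06 and 0.95, with none of the 3 differences called. The Arid1a value of Syne2 was 0.61 without Arid1a control replicate 1 and 1.69 without replicate 2.

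Other members rose in both with a difference that passed. Apoe, the lipid carrier of macrophages, had 982 and 1017 CPM in cKO cultures against 245 and 208 CPM in Arid1a controls, and 1383 and 1293 CPM in JQ1 cultures against 722 and 741 CPM in JQ1 controls, and its difference was 1.27 ± 0.11 (edgeR adjusted p = 1.69e-07). The Arid1a controls were the lowest of the 4 groups and no groups overlapped within an experiment. Cd83, a surface protein of activated antigen-presenting cells, had 15.2 and 12.4 CPM in cKO cultures against 0.92 and 0.324 CPM in Arid1a controls. Levels of Cd83 were 16.7 and 16.3 CPM in JQ1 cultures against 7.67 and 10.3 CPM in JQ1 controls. Its level was under 1 CPM only in the Arid1a controls, and the difference was 3.56 ± 0.39 (edgeR adjusted p = 4.2e-06). Tgfbr1, a receptor chain for TGF-beta, changed by 1.57 and 0.32, Sirpa, the receptor for the "don't eat me" signal CD47, by 1.05 and 0.45, and Atp6v0a1, a subunit of the proton pump that acidifies lysosomes, by 1.09 and 0.32, all with positive differences that passed. In the lists that hold such genes, most members were in other classes or in none. Of 23 scavenger and efferocytosis genes, which serve the uptake of dying cells and lipoproteins, 4 were higher in both (Abca7, Lrp1, Mertk and Stab1; 17.4%, against 5.36% of all genes tested) and 5 were higher after Arid1a loss and lower after JQ1 (21.7%, against 3.93%). Of 18 subunits of the proton pump 2 were higher in both (11.1%), and of 44 Rab GTPases of membrane traffic 1 was (2.27%).

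Lysosomal genes rose more often than they fell in both responses. Of 49 tested genes for lysosomal hydrolases and membrane proteins, 37 rose after Arid1a loss and 0 fell (against 16.7% and 16.5% of all genes tested). After JQ1 29 rose and 6 fell (against 20% and 19.1%). Higher in both were 22 (44.9%, against 5.36% of all genes tested), with medians of 0.46 and 0.19. The difference was positive for 22 (44.9%, against 14.7%) and negative for 5 (10.2%, against 13.5%). The 22 include the proteases Ctsb and Ctsd, the lipase Lipa, the sphingolipid activator Psap, the glycosidases Hexa and Man2b1, the cholesterol exporter Npc1 and the calcium channel Mcoln1, and their log2 fold changes ran between 0.29 and 1.06 after Arid1a loss and between 0.16 and 0.63 after JQ1. The count fell to 9 without cKO replicate 1 and to 11 without cKO replicate 2. Another 9 rose only after Arid1a loss by the test of the difference (against 5% of all genes tested), among them Gaa (1.02 and -0.15), the acid glucosidase. A further 5, among them the cathepsins Ctss and Ctsl, were higher after Arid1a loss and lower after JQ1 (10.2%, against 3.93%). Of the 49 promoters, 12.2% held a CLEAR palindrome against 1.82% of all 10802 promoters searched.

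**Figure D3:**
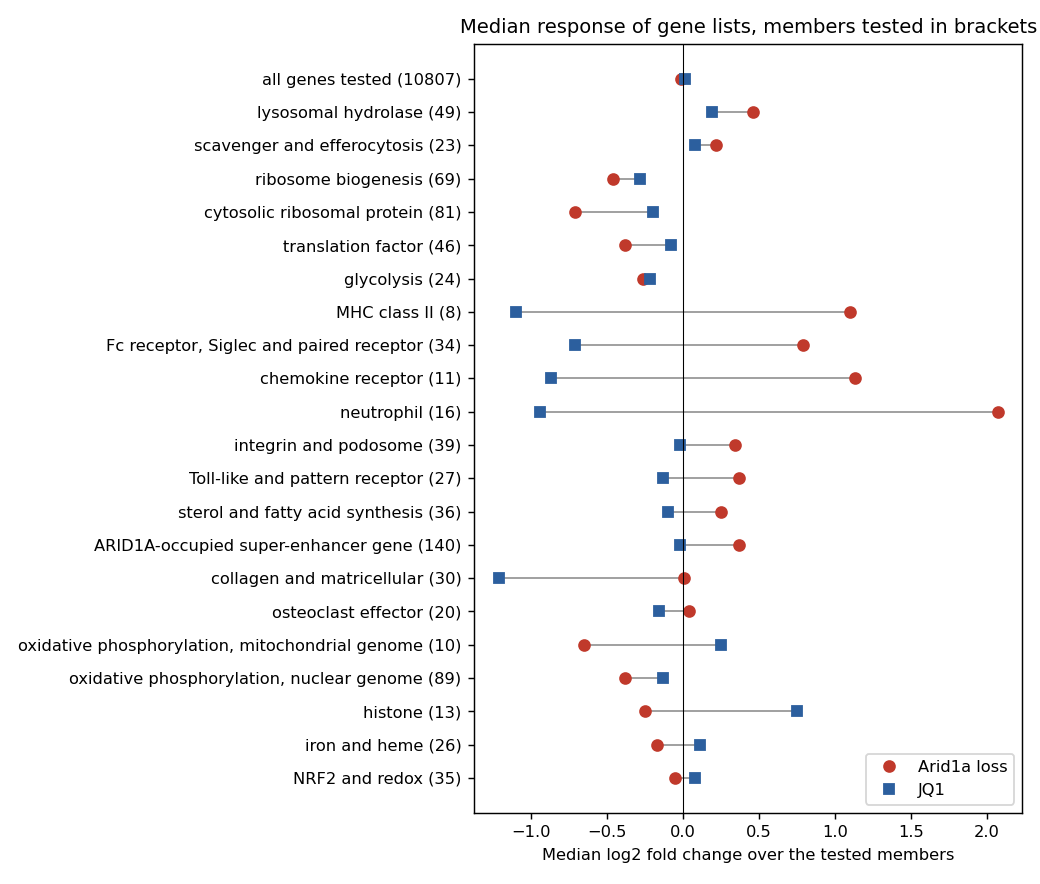
Median log2 fold change over the tested members of each gene list after Arid1a loss (circles) and after JQ1 (squares), with all genes tested in the top row and the number of members in brackets. The lysosomal hydrolase list has both medians above 0 (0.46 and 0.19), the cytosolic ribosomal protein list both below 0 (-0.71 and -0.20), and the chemokine receptor list (1.13 and -0.87) lies on opposite sides.

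Genes higher after Arid1a loss and lower after JQ1 included many receptors of innate immune cells. The promoters of the near-identical genes Sirpb1a and Sirpb1c, activating receptors of the signal regulatory family, are printed because both genes stood among the 8 of this class with the largest smaller change while their promoters differ at the interferon-stimulated response element. Capitals mark the element searched (ISRE, a pair of GAAA words with any NN between them).
Sirpb1a, chr3:15491581-15491830, minus strand: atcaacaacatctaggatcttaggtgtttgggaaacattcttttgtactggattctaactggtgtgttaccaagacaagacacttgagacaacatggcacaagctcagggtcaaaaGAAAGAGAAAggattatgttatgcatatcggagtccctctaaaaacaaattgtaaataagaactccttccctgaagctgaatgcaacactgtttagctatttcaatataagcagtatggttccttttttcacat
Sirpb1c, chr3:15902693-15902942, minus strand: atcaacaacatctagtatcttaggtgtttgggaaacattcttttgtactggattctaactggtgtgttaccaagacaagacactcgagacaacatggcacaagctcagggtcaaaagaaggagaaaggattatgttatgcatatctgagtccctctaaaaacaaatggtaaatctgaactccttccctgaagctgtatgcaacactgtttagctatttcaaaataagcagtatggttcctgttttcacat
The 2 sequences differed at 10 of 250 bases (96.0% identity), and 1 of these lay inside the match of Sirpb1a, which starts 134 bases before the start site, so Sirpb1c held no match.

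Sirpb1c had 92.3 and 84.4 CPM in cKO cultures against 16 and 11.6 CPM in Arid1a controls. Levels of Sirpb1c were 0.861 and 1.05 CPM in JQ1 cultures against 7.55 and 8.52 CPM in JQ1 controls. Its copy followed the same pattern at a lower level. Sirpb1a had 19 and 19.7 CPM in cKO cultures against 5.34 and 4.22 CPM in Arid1a controls. Levels of Sirpb1a were 0.0662 and 0.233 CPM in JQ1 cultures against 1.79 and 2.27 CPM in JQ1 controls. Both were several times higher in cKO cultures and near 0 in JQ1 cultures, with differences of 5.73 ± 0.28 and 5.66 ± 0.51 (edgeR adjusted p = 3.3e-10 and 4.17e-07). Their reads may be shared between the copies. Siglec1 (ENSMUSG00000027322, chr2:130911140-130928685), the sialic acid receptor CD169 of macrophages, had 867 and 867 CPM in cKO cultures against 144 and 172 CPM in Arid1a controls. Levels of Siglec1 were 37.8 and 43.6 CPM in JQ1 cultures against 236 and 193 CPM in JQ1 controls. It was high only in the cKO libraries and low only in the JQ1 libraries, with changes of 2.45 ± 0.10 and -2.40 ± 0.08 and a difference of 4.85 ± 0.15 (edgeR adjusted p = 5.61e-12). Ly6a, the surface antigen Sca-1, had 194 and 174 CPM in cKO cultures against 17.4 and 8.11 CPM in Arid1a controls. Levels of Ly6a were 0.464 and 0.175 CPM in JQ1 cultures against 6.93 and 8.14 CPM in JQ1 controls. It was high only in the cKO libraries and under 1 CPM only in the JQ1 libraries. Siglec1 and Ly6a are known to be raised by interferon although the list does not hold them, so leaving out the list does not leave out every gene of that kind. Of 34 tested Fc, Siglec and paired receptors, 13 were in this class (38.2%, against 3.93% of all genes tested), among them Pirb, Pira1, Pira2, Fcgr4, Siglece and Cd300lf, while 7 were higher in both, among them Fcgr3, Fcer1g and Lilrb4a. An ISRE match was found in 20.6% of this list's promoters and 37.2% of those of the interferon list, against 3.11% of all promoters.

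Chemokine receptors split the same way. Cx3cr1, the fractalkine receptor of monocytes and osteoclast precursors, had 349 and 353 CPM in cKO cultures against 51.5 and 49.9 CPM in Arid1a controls. Levels of Cx3cr1 were 11.8 and 9.69 CPM in JQ1 cultures against 20 and 19.1 CPM in JQ1 controls. The JQ1 libraries lay below their controls, but by less than the cKO libraries lay above theirs, and the difference was 3.66 ± 0.14 (edgeR adjusted p = 1.56e-11). Ccr2, which draws monocytes out of the marrow, changed by 1.13 ± 0.20 and -2.02 ± 0.47. Of the 11 tested members of the list, 5 were in this class (45.5%, against 3.93% of all genes tested, and 3 under a stricter filter on low counts). Lower in both were 2 (Ccr1 and Ccr3), and 2 were higher in both (Cxcr4 and C5ar1). C5ar1 is a complement receptor that the list also holds. For MHC class II, which presents peptides to T cells, 5 of 8 genes were in the class (62.5%). H2-Aa had 5.24 and 5.81 CPM in cKO cultures against 1.53 and 1.3 CPM in Arid1a controls, and 3.11 and 4.38 CPM in JQ1 cultures against 10.3 and 11.6 CPM in JQ1 controls, and H2-Ab1 and H2-Eb1 had differences of 2.55 ± 0.32 and 3.22 ± 0.41. The H2-Aa groups did not overlap, and its levels were low in all libraries. The sum of 10 dendritic cell markers, cells that carry much class II, was 114 to 127 CPM in cKO cultures against 67.9 to 78.2 CPM in Arid1a controls and 14.9 to 15.8 CPM in JQ1 cultures against 34.4 to 35.5 CPM in JQ1 controls, with Siglech at 0 in all 4 groups, and its part in the result was not tested.

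Inflammatory mediators were part of the class. Il1rn (ENSMUSG00000026981, chr2:24226865-24241506), the antagonist of the interleukin-1 receptor, had 408 and 402 CPM in cKO cultures against 208 and 199 CPM in Arid1a controls. Levels of Il1rn were 26.1 and 28.7 CPM in JQ1 cultures against 224 and 222 CPM in JQ1 controls. The fall after JQ1 (-3.02 ± 0.07) was the larger change, the rise after Arid1a loss was 0.99 ± 0.08, and the difference was 4.02 ± 0.10 (edgeR adjusted p = 1.23e-12). Nlrp3, the inflammasome sensor, changed by 0.70 ± 0.11 and -1.11 ± 0.08, and Nos2, the inducible nitric oxide synthase, by 3.31 ± 0.13 and -2.49 ± 0.67, although the JQ1 value of Nos2 did not pass without JQ1 replicate 1 (-2.07, edgeR adjusted p = 0.053). Rasgrp1, an activator of Ras, changed by 4.50 ± 0.26 and -2.76 ± 0.70, and without JQ1 replicate 2 the JQ1 value was -1.70 and did not pass (edgeR adjusted p = 0.0993). Of 27 Toll-like and other pattern receptors, 16 had a positive difference (59.3%, against 14.7% of all genes tested) and 6 were in the class (22.2%, against 3.93%), among them Tlr1, Tlr7 and Nod2.

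Some matrix and lipid genes also moved apart. Mmp12, the macrophage elastase, had 1506 and 1383 CPM in cKO cultures against 511 and 479 CPM in Arid1a controls, and 506 and 477 CPM in JQ1 cultures against 1124 and 1250 CPM in JQ1 controls, and its difference was 2.82 ± 0.10 (edgeR adjusted p = 1.25e-11). The cKO libraries stood above and the JQ1 libraries below their controls, with like levels in the Arid1a controls and the JQ1 cultures. Tgfbi, a matrix protein induced by TGF-beta, changed by 1.10 and -1.01, and Col4a2, a basement membrane collagen, by 3.24 and -1.38. Nr1h3, the nuclear receptor LXR-alpha that senses oxysterols, changed by 1.57 ± 0.14 and -1.10 ± 0.16, and its target Abca1, the cholesterol exporter, by 1.62 ± 0.13 and -0.50 ± 0.08, with a JQ1 value of -0.31 without JQ1 control replicate 1. Apoe and Abca1 are both LXR targets, yet Apoe was higher in both responses and Abca1 moved apart. Of 21 LXR and lipid efflux genes, 5 were higher in both (23.8%, against 5.36% of all genes tested) and 3 were higher after Arid1a loss and lower after JQ1 (Abca1, Nr1h3 and Plin2; 14.3%, against 3.93%). Of 16 matrix proteases and inhibitors Mmp12 alone was in the class (6.25%), and of 30 collagen and matricellular genes 5 were (16.7%). Of 36 sterol and fatty acid synthesis genes, 18 had a positive difference (50%, against 14.7%) and 6 were in the class (16.7%, against 3.93%), among them Hmgcs1 and Cyp51 of sterol synthesis. Slc7a11, the cystine importer, changed by 0.98 and -1.35, apart from most of its redox list described below.

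Granule genes of neutrophils were in the class too. Of 16 tested neutrophil markers, 9 were higher after Arid1a loss and lower after JQ1 (56.2%, against 3.93% of all genes tested), among them Ngp (2.28 and -0.83) and S100a9 (2.50 and -0.76), with list medians of 2.07 and -0.94. The count was 4 under a stricter filter on low counts and 5 by DESeq2. The summed level of the 20 markers was 1059 to 1086 CPM in cKO cultures against 1000 to 1201 CPM in Arid1a controls, which overlapped, and 811 to 819 CPM in JQ1 cultures against 1060 to 1137 CPM in JQ1 controls. Ly6g, a defining marker, was at 0 in all groups but the cKO. The part of neutrophils in any result was not tested.

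**Figure D4:**
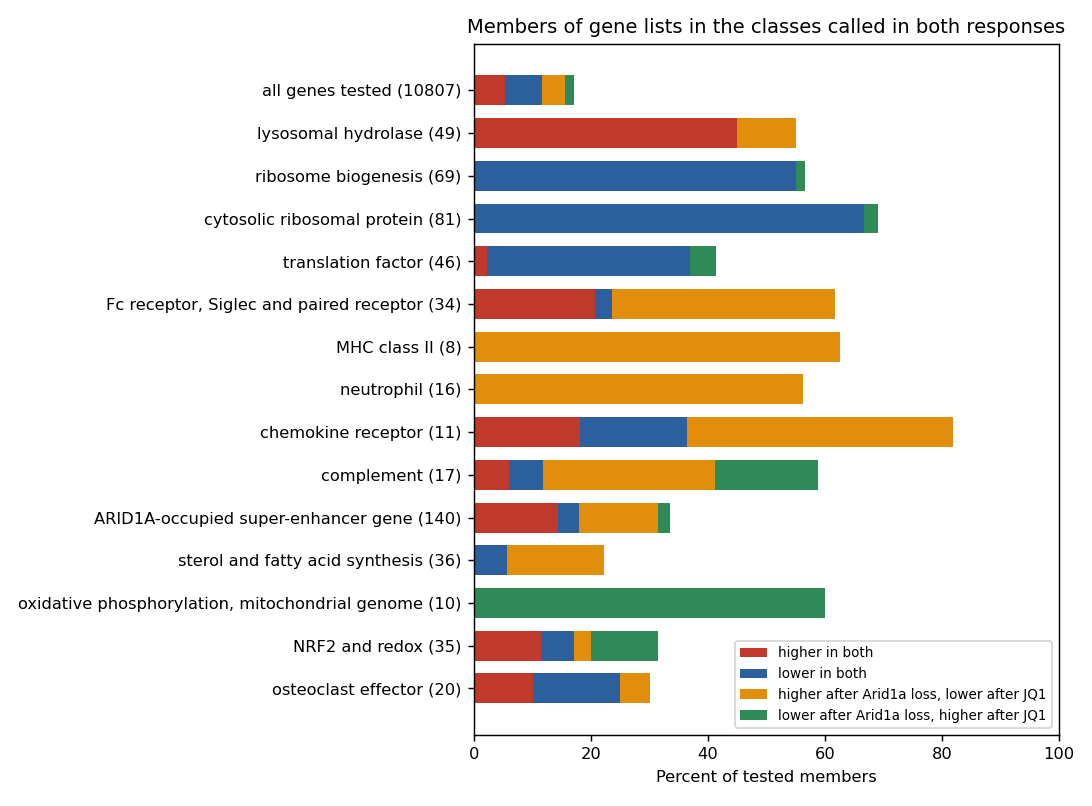
Percent of the tested members of each gene list (x axis) in the 4 classes called in both responses, as stacked bars, with all genes tested in the top row and the number of members in brackets. The longest part is the class lower in both for cytosolic ribosomal proteins (54 of 81 members), the class higher in both for lysosomal hydrolases (22 of 49), and the class higher after Arid1a loss and lower after JQ1 for the Fc and paired receptor, MHC class II and neutrophil lists (13 of 34, 5 of 8 and 9 of 16).

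The 170 genes lower after Arid1a loss and higher after JQ1 were the smallest class. The promoters of H1f2, a replication-linked linker histone, and Klf9, a transcription factor responsive to oxidative and steroid signals, are shown because the class held the NF-Y box (CCAAT, or ATTGG read on the other strand, in capitals) more often than any other of the 4 classes.
H1f2, chr13:23922541-23922790, plus strand: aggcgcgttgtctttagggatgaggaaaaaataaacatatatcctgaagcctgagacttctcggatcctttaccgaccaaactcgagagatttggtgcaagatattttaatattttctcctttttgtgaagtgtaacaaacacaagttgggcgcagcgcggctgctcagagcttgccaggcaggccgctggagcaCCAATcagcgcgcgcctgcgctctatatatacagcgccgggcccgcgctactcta
Klf9, chr19:23117937-23118186, plus strand: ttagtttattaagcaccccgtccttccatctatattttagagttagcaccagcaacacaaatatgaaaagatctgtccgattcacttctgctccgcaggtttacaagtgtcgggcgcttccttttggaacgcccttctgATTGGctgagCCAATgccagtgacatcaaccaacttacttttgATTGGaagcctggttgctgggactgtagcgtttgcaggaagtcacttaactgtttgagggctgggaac
The H1f2 match starts 55 bases before the start site and the 3 Klf9 matches from 111 bases before it.

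Spp1 (ENSMUSG00000029304, chr5:104582984-104588916), the bone matrix and macrophage glycoprotein osteopontin, had 186 and 199 CPM in cKO cultures against 1608 and 1366 CPM in Arid1a controls. Levels of Spp1 were 3577 and 3527 CPM in JQ1 cultures against 2159 and 2422 CPM in JQ1 controls. It was low only in the cKO libraries, with changes of -2.95 ± 0.10 and 0.63 ± 0.05 and a difference of -3.58 ± 0.12 (edgeR adjusted p = 5.61e-12). H1f2 had 15.5 and 20.2 CPM in cKO cultures against 44.2 and 39.6 CPM in Arid1a controls. Levels of H1f2 were 103 and 109 CPM in JQ1 cultures against 43.6 and 50.1 CPM in JQ1 controls. The controls of both experiments held about the same level, the cKO libraries lay below it and the JQ1 libraries above it, with a difference of -2.41 ± 0.17 (edgeR adjusted p = 1.81e-08). Cep85, a centrosomal protein, had 180 and 183 CPM in cKO cultures against 428 and 353 CPM in Arid1a controls, and 507 and 474 CPM in JQ1 cultures against 247 and 249 CPM in JQ1 controls, and both groups were apart. Klf9 had 2.75 and 3.42 CPM in cKO cultures against 10.9 and 11.2 CPM in Arid1a controls. Levels of Klf9 were 8.61 and 7.3 CPM in JQ1 cultures against 4.58 and 4.92 CPM in JQ1 controls. Its groups did not overlap either, but the JQ1 value of Klf9 (0.74) did not pass without JQ1 replicate 1 (0.62, edgeR adjusted p = 0.0605). Wfdc17, a secreted inhibitor-like protein of macrophages, changed by -1.29 and 0.85, and Ier3, an early-response survival gene, by -0.80 and 0.78.

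All 3 chains of the complement starter C1q were in this class. C1qb had 148 and 149 CPM in cKO cultures against 469 and 368 CPM in Arid1a controls, and 841 and 780 CPM in JQ1 cultures against 477 and 501 CPM in JQ1 controls, and its difference was -2.22 ± 0.13 (edgeR adjusted p = 2.43e-09). It was low only in the cKO libraries and high only in the JQ1 libraries. C1qa and C1qc had differences of -2.03 ± 0.15 and -1.52 ± 0.13. Of the 17 tested complement genes, these 3 (17.6%, against 1.57% of all genes tested) stood beside 5 in the opposite class, higher after Arid1a loss and lower after JQ1 (C1ra, C3, C5ar2, Itgam and Itgax; 29.4%, against 3.93%), 3 that rose after Arid1a loss only by the test of the difference, 1 higher in both and 1 lower in both. Gas6, a ligand that bridges dying cells to Mertk, had 30.3 and 27 CPM in cKO cultures against 46.1 and 36.6 CPM in Arid1a controls. Levels of Gas6 were 613 and 586 CPM in JQ1 cultures against 269 and 272 CPM in JQ1 controls. Its level in the JQ1 experiment was several times that in the Arid1a experiment, and its fall after Arid1a loss (-0.53 ± 0.14) did not pass without cKO replicate 2 (-0.45, edgeR adjusted p = 0.128). Mertk itself, given above, was higher in both.

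Respiratory chain genes of the mitochondrial genome had negative differences. Of the 10 tested, 6 were in this class (60%, against 1.57% of all genes tested) and all 10 had a negative difference (against 13.5% of all genes tested), with medians of -0.65 and 0.25. mt-Nd1, a subunit of complex I, had 2079 and 2019 CPM in cKO cultures against 3512 and 3716 CPM in Arid1a controls, and 2371 and 2355 CPM in JQ1 cultures against 2114 and 2143 CPM in JQ1 controls, and mt-Nd4 and mt-Cytb had differences of -1.01 ± 0.09 and -0.85 ± 0.08. The rises after JQ1 were small (0.15 for mt-Nd1). That of mt-Nd1 did not pass without JQ1 replicate 1 or 2 (edgeR adjusted p = 0.094 and 0.0766) or with all 8 libraries in 1 fit (edgeR adjusted p = 0.0736), and the count of 6 was 3 with all 8 libraries in 1 fit and 3 without JQ1 replicate 1. These genes lie on 1 molecule, are read together and are not independent. Of the 89 tested chain genes of the nuclear genome, 41 fell and 0 rose after Arid1a loss (against 16.5% of all genes tested lower), 30 fell and 3 rose after JQ1 (against 19.1% lower and 20% higher), 14 were lower in both (15.7%, against 6.19%) and 0 moved apart, with medians of -0.38 and -0.13. The difference was negative for 12 of them (13.5%, the same share as over all genes tested). Reads of mitochondrial genes were 2.47% and 2.41% of cKO libraries against 3.0% and 3.30% of Arid1a controls, and 2.07% and 2.05% of JQ1 libraries against 1.88% and 1.84% of JQ1 controls.

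Redox genes leaned weakly to the same side, with list medians of -0.05 and 0.08 against -0.01 and 0.01 over all genes tested. Histone genes leaned more. Of 35 NRF2 and redox genes, 12 had a negative difference (34.3%, against 13.5%) and 6 a positive one (17.1%, against 14.7%), 4 were in the class (Hmox1, Prdx1, Txnrd1 and Gpx4; 11.4%, against 1.57%) and 4 were higher in both (11.4%, against 5.36%). Hmox1, the enzyme that degrades heme, had 671 and 652 CPM in cKO cultures against 936 and 943 CPM in Arid1a controls. Levels of Hmox1 were 988 and 883 CPM in JQ1 cultures against 635 and 677 CPM in JQ1 controls. The groups did not overlap, and the changes were of like size and opposite sign, -0.51 ± 0.08 and 0.51 ± 0.05. Of 13 tested histone genes, 10 had a negative difference (76.9%, against 13.5%), with medians of -0.25 and 0.75. After JQ1, 9 rose and 0 fell (against 20% and 19.1% of all genes tested), and after Arid1a loss 1 rose and 3 fell (against 16.7% and 16.5%). By the test of the difference 6 rose after JQ1 only (against 4.15%), among them H3f3b, a replacement histone (-0.07 and 0.58). Histone genes took 0.229% and 0.227% of the reads of JQ1 libraries against 0.165% and 0.174% of JQ1 controls. Most replication-linked histone genes were not tested, because 79 histone genes were in the tables and 13 passed the filter, and their near-identical copies make single counts uncertain.

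Genes that moved in 1 response, with a difference that passed, numbered 540 higher (5%) and 559 lower (5.17%) after Arid1a loss, and 448 higher (4.15%) and 362 lower (3.35%) after JQ1. Without Arid1a control replicate 2 the first pair of counts was 993 and 1116, without cKO replicate 1 it was 326 and 244, without cKO replicate 2 it was 329 and 247, and under upper-quartile scaling it was 447 and 757. Without JQ1 replicate 1 the counts for JQ1 were 201 and 227, without JQ1 replicate 2 they were 250 and 232, and without JQ1 control replicate 1 or 2 they were 241 and 238 or 289 and 261. Higher after Arid1a loss were Cd33, an inhibitory Siglec (2.61 and 0.13), and Adam10, a membrane sheddase (0.99 and 0.04), and also Arid1b, the paralogous BAF subunit (0.63 and -0.14), at 0.40 without Arid1a control replicate 1. Lower after Arid1a loss was Pabpc1, the poly(A)-binding protein (-0.54 and 0.08). Higher after JQ1 were Brd2, itself a BET protein (-0.18 and 1.02), and Hexim1 (0.27 and 0.99). Of 35 tested genes of the BET and elongation list, 11 rose and 1 fell after JQ1 (against 20% and 19.1% of all genes tested). After Arid1a loss 3 rose and 1 fell (against 16.7% and 16.5%). Called in both responses were 0 of the 35, against 1843 of the 10807. Lower after JQ1 were Pgf, a placental growth factor (0.08 and -4.02), Mmp8, the collagenase of neutrophils (0.11 and -1.86), and 13 of 30 tested collagen and matricellular genes, against 3.35% of all genes tested. That collagen count was 5 under a stricter filter on low counts and 8 without JQ1 replicate 1 or JQ1 control replicate 1, and the summed level of 12 stromal and osteoblast markers was 33.1 to 33.4 CPM in JQ1 cultures against 71.2 to 77.0 CPM in JQ1 controls, 33.3 to 37.9 CPM in cKO cultures and 36.0 to 41.1 CPM in Arid1a controls, and its part in the collagen result was not tested.

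Osteoclast genes were spread over several classes. Of 20 tested effector genes, 3 were lower in both (Ctsk, Mmp9 and Src; 15%, against 6.19% of all genes tested), 2 were higher in both (Itgb3 and Ostm1; 10%, against 5.36%), Cd109 moved apart (1.83 and -0.92), and 3 fell after JQ1 only by the test of the difference (Acp5, Mmp14 and Slc9b2). Over all genes tested, 3.35% fell after JQ1 only. After Arid1a loss 3 of the 20 rose and 4 fell (against 16.7% and 16.5% of all genes tested). After JQ1, 4 rose and 10 fell (against 20% and 19.1%). The difference was positive for 7 (35.0%, against 14.7%) and negative for 1 (5%, against 13.5%). The list medians were 0.04 and -0.16. Acp5, the tartrate-resistant phosphatase used to stain osteoclasts, had 45.4 and 41.9 CPM in cKO cultures against 43.3 and 34.1 CPM in Arid1a controls. Levels of Acp5 were 2.72 and 3.38 CPM in JQ1 cultures against 9.53 and 13.6 CPM in JQ1 controls. Its cKO and Arid1a control libraries lay close together, the JQ1 libraries lay below their controls, and the difference was 2.09 ± 0.26 (edgeR adjusted p = 2e-05). Slc9b2, a sodium-proton exchanger of osteoclasts, changed by 0.23 and -2.38. Ocstamp, the partner of Dcstamp in fusion, had 0 reads in the JQ1 libraries against 12 in their controls, at least 4.03-fold lower with a floor of 3 reads over the group, and did not pass the filter of the JQ1 fit.

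The regulators upstream varied as well. Tnfrsf11a, the RANK receptor, changed by 0.54 ± 0.09 after Arid1a loss and by -0.22 ± 0.07 after JQ1, the JQ1 value being -0.18 without JQ1 replicate 1 and not called there (edgeR adjusted p = 0.128). Fos, the AP-1 subunit without which no osteoclasts form, had 497 and 550 CPM in cKO cultures against 403 and 433 CPM in Arid1a controls. Levels of Fos were 29.6 and 27.4 CPM in JQ1 cultures against 70 and 88.5 CPM in JQ1 controls. The JQ1 libraries were well below their controls, but the rise after Arid1a loss (0.32 ± 0.09) did not pass without cKO replicate 1 or 2 (0.40 and 0.25, edgeR adjusted p = 0.115 and 0.385). Nfatc1, the master factor of the lineage, had 134 and 136 CPM in cKO cultures against 139 and 179 CPM in Arid1a controls, and 65.2 and 71.6 CPM in JQ1 cultures against 68.7 and 65.2 CPM in JQ1 controls, and neither response (-0.23 ± 0.12 and 0.03 ± 0.08) nor the difference of -0.26 ± 0.15 was called (edgeR adjusted p = 0.205 for the difference), which does not show that it was unchanged. Its JQ1 groups overlapped, and the higher Arid1a control stood apart from the other 3 libraries of that experiment. Spi1, the myeloid factor PU.1, had a value of 0.20 after Arid1a loss, which was not called, and fell after JQ1 (-0.21 ± 0.05). Its difference of 0.41 ± 0.10 (edgeR adjusted p = 0.0059) was 0.37 without cKO replicate 2 and did not pass there. Of 31 osteoclast transcription factors, 4 were lower in both (Fosl2, Jdp2, Prdm1 and Rbpj; 12.9%, against 6.19% of all genes tested), 3 were higher after Arid1a loss and lower after JQ1 (Bcl6, Cebpb and Fos; 9.68%, against 3.93%), 2 were higher in both (6.45%, against 5.36%), and by the test of the difference 4 rose after Arid1a loss only and 4 rose after JQ1 only.

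Genes that the study lists as ARID1A-occupied super-enhancer genes leaned to a positive difference. Of 140 tested, 77 had a positive difference (55.0%, against 14.7% of all genes tested) and 5 a negative one (3.57%, against 13.5%). By that test 34 rose after Arid1a loss only (against 5% of all genes tested), and fewer did without cKO replicate 1 or 2. Higher in both were 20 (14.3%, against 5.36%), and 19 were higher after Arid1a loss and lower after JQ1 (13.6%, against 3.93%). Lower in both were 5 (3.57%, against 6.19%). The list medians were 0.37 and -0.02. Lgmn, the lysosomal protease legumain, was among the 19 (1.61 ± 0.09 and -0.19 ± 0.05). The study chose the list from its own data, so it is not independent evidence.

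The classes also differed in gene length, which the calls did not use. They differed too in the ratio between the Arid1a controls, whose counts entered the calls, so that ratio is not independent of the classes. Median gene length was 6148 bases for genes higher in both and 3409 bases for genes lower in both, against 4603 bases over all genes tested, and 4791 and 3972 bases for the classes that moved apart. The median log2 ratio of Arid1a control replicate 1 over replicate 2 was -0.09 for genes higher in both and 0.12 for genes lower in both, so the spread inside the Arid1a control pair ran along the same axis, and its part in the classes was not tested. With a length trend removed from the counts the classes held 645, 814, 539 and 244 genes in the order given above.

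Promoters were searched for 11 motifs on both strands over 300 bases (250 before and 50 from the start site). An NF-Y box was found in 55.9% of the 170 genes lower after Arid1a loss and higher after JQ1, against 39.9% of all promoters. The share was 38.5% for genes higher in both, 31.8% for genes lower in both and 31.3% for genes higher after Arid1a loss and lower after JQ1. The 170 include 6 genes of the mitochondrial genome, whose windows are neighbouring mitochondrial sequence and not promoters of single genes. The ETS motif was found in 19.3% of genes lower in both against 13.9% of all, and in 34.8% of ribosome biogenesis and 27.2% of ribosomal protein promoters. The AP-1 motif was found in 7.32% of genes lower in both and in 9.94% of genes lower after JQ1 only, against 5.09% of all. Genes lower in both also held a TATA motif (TATAAA) in 10.5% against 7.63% of all, a GAS motif (TTCNNNGAA) in 8.97% against 7.58%, an NF-kB motif (GGGA, then NNNN, then CC) in 26.2% against 24.4% and the E-box in 11.5% against 10.5%. The TATA motif was found in 11.5% of genes higher after Arid1a loss and lower after JQ1 and in 12.4% of genes lower after JQ1 only. An ISRE match was found in 5.65% of genes higher after Arid1a loss and lower after JQ1, against 3.11% of all. Its share was 0.588% in the class that moved the other way, 2.59% for genes higher in both and 3.14% for genes lower in both. The CLEAR palindrome was found in 2.76% of genes higher in both against 1.82% of all, and in 1 of 425 genes higher after Arid1a loss and lower after JQ1. The plain E-box CACGTG, which overlaps that palindrome, was found in 4.71% of the 425 genes, against 10.5% of all. The median GC content of the window was 54.3% for that class and 58.3% over all promoters. Genes lower after JQ1 only had a GC content of 54.0% and held the E-box in 9.39% and the CLEAR palindrome in 2.21%. A match is a run of letters in the reference genome and shows no binding.

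**Figure D5:**
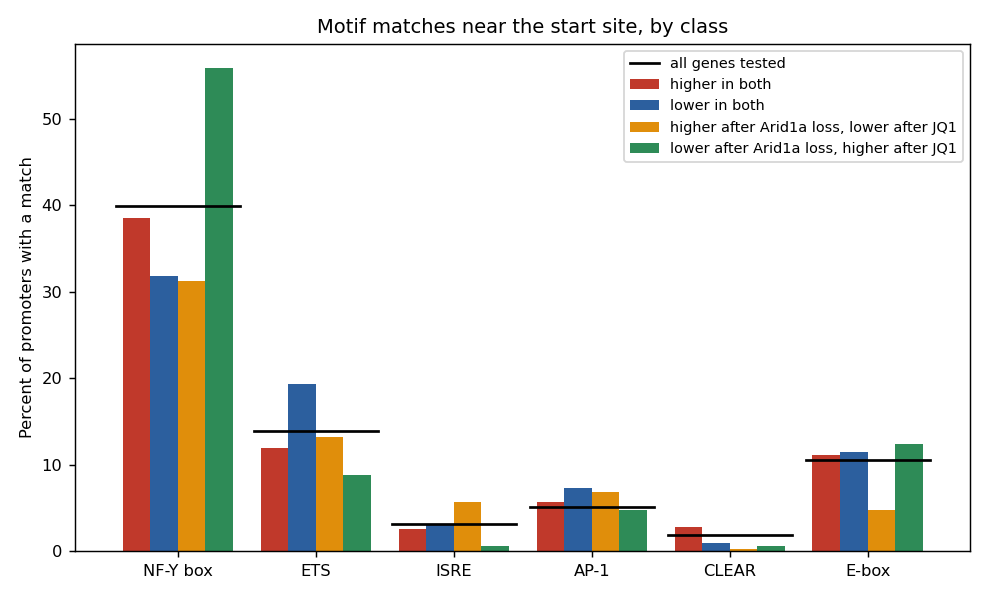
Percent of promoters with a match to each of 6 motifs (y axis) in the 4 classes (bars) and over all genes tested (black lines). The NF-Y box bar of the class lower after Arid1a loss and higher after JQ1 stands at 55.9% over a line at 39.9%, and the ETS bar of the class lower in both at 19.3% over a line at 13.9%.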

How the data were processed

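RNA-seq of 8 libraries of mouse bone marrow-derived monocytes was used, 2 libraries for each of Arid1a cKO, Arid1a control, JQ1 and JQ1 control. The deposited tables hold read counts per gene, which the authors made by trimming with cutadapt, aligning with HISAT2 to GRCm39 and counting with HTSeq, per the submitters' processing notes. Beside them the authors deposited FPKM values, which were not used here (the 4 FPKM columns of the JQ1 table were not assigned to samples). The Ensembl release, strand setting and read filters were not given in the sources used here, so overlapping genes and near-identical copies cannot be told apart by strand or mapping. The JQ1 columns carry only the codes J0 and J4, which were read as JQ1 control and JQ1.

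Counts were joined by gene ID and tested with edgeR (version 4.0.16, R version 4.3.3) by the quasi-likelihood F test with robust dispersion, TMM scaling and filterByExpr. Each response was fitted on its own 4 libraries (11319 genes tested for Arid1a loss, 11352 for JQ1). The difference of the responses was the interaction in 1 fit over all 8 libraries (11767 genes). P-values were adjusted by Benjamini and Hochberg over all genes of a fit and called under 0.05, and each SE is the absolute log2 fold change divided by the square root of F. Levels are CPM on TMM-scaled library sizes. Genes were named by rule: a preset list, the 8 genes of each main class whose smaller change was largest (groups not overlapping, 1 group mean of 10 CPM or more), and up to 4 members of each list with the smallest p of the difference. Other genes given with values were added from the lists after their values were seen, and some genes that the rule names are not reported here. The members and lists were chosen with earlier results of these data known. In simulated data over 10926 genes, 81 of 100 genes with a log2 change of 1 in each response and 18 of 100 with 0.5 were placed in their class. The simulation set a biological coefficient of variation of 0.1 and changed no other genes. The real fits had values of 0.0874 (Arid1a loss), 0.047 (JQ1) and 0.0704 (difference) and many more called genes. These rates are therefore not the sensitivity of the calls given here. DESeq2 (version 1.42.0), limma-voom (limma version 3.58.1), other scalings, filters and fold thresholds, a length trend, a replicate block and leaving out each library were tried as alternatives. Promoter sequences are of GRCm39 at the start of the GENCODE M39 canonical transcript, found for 10802 of the 10807 genes. Intervals and floors cover counting error only.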

Additional observations from a re-analysis of the deposited data

How the results depend on the processing

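With 2 libraries a group, counts of calls moved when a library was left out. The difference passed for 1182 to 2292 genes upward and 825 to 2363 downward, Arid1a loss for 1069 to 2883 higher and 869 to 2872 lower, and JQ1 for 1513 to 2164 higher and 1480 to 2090 lower. The classes ran over 310 to 923 genes (higher in both), 417 to 868 (lower in both), 314 to 523 (higher after Arid1a loss, lower after JQ1), 80 to 335 (the reverse), 326 to 993 and 244 to 1116 (Arid1a loss only, higher and lower) and 201 to 501 and 227 to 372 (JQ1 only). All upper ends but those of the response to JQ1 came without an Arid1a control. The cause was not tested.

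DESeq2 gave 1425 genes higher after JQ1 and 103 lower after Arid1a loss and higher after JQ1. Responses taken from the fit over 8 libraries gave 1298 higher after JQ1 and 290 higher after JQ1 only. With at least 2-fold change required beside the adjusted p, fewer genes pass by construction: 697 and 248 for the difference (positive and negative), 430 and 311 for Arid1a loss (higher and lower), 71 and 485 for JQ1, 4 higher and 76 lower in both, 102 and 4 moving apart, 227 and 122 in Arid1a loss only, and 21 and 187 in JQ1 only. With unadjusted p and 2-fold these were 803 and 294, 470 and 347, 80 and 520, 8 and 92, 113 and 6, 260 and 144, and 31 and 218. Under RLE scaling 575 of 579, 669 of 669, 425 of 425 and 170 of 170 members of the 4 main classes kept their class, and by DESeq2 415, 464, 319 and 102 did.

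The sign of a small value changed for the difference of Mdm2 (-0.04 by upper-quartile scaling, -0.01 without a filter on low counts), the difference of Syne2 (-0.14 with the length trend removed), the Arid1a value of H3f3b (0.00 with that trend removed) and the JQ1 value of Nfatc1 (-0.03 with it removed), and for r over genes (-0.06 with the interferon list). Leaving out 1 library at a time, the differences ran over -0.05 to 0.08 (Mdm2), -0.34 to 0.73 (Syne2), -0.10 to 0.29 (Klhl24), -0.37 to 0.17 (Mertk), -0.77 to 0.06 (Serpinb9b) and -4.86 to 1.36 (Eef1a2), the Arid1a values over -0.20 to 0.06 (H3f3b) and -0.05 to 0.22 (Pgf), and the JQ1 values over -0.03 to 0.16 (Arid1a) and -0.04 to 0.10 (Nfatc1). Of these values, the difference of Eef1a2 had passed its test.

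The replicate numbers only name the libraries. Deviations of same-numbered libraries had a correlation of 0.023 in the Arid1a experiment and -0.024 in the JQ1 experiment over 10987 genes. With the replicate number as a block, 614 genes were higher and 662 lower in both, 427 and 177 moved apart, and 1613 and 1438 had a positive and negative difference. The block moved no class count by over 1.5 times. Under it 10 translation factor genes were lower in both, and the JQ1 response of mt-Nd1 did not pass (0.15, edgeR adjusted p = 0.0511).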
